A study of Homo sapiens with 6 samples.

Results

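The genes described here are the small and mitochondrial non-coding RNA genes of a table of genes that differed between the bladder carcinoma cell line T24 and its chemoresistant strain. They were chosen by the gene type the table gives, namely mitochondrial tRNA or rRNA, snRNA, snoRNA, scaRNA, miRNA, miscellaneous RNA, nuclear rRNA, ribozyme or vault RNA. The rule found 26 of the 2462 listed genes. Of these, 14 lie on the mitochondrial genome (2 rRNA and 12 tRNA genes) and 12 are nuclear (6 miRNA genes, 4 snoRNA genes and 2 miscellaneous RNA genes). No listed gene was an snRNA, scaRNA, nuclear rRNA, ribozyme or vault RNA. For comparison, the GENCODE version 44 annotation holds 22 mitochondrial tRNA genes, 2 mitochondrial rRNA genes, 1879 miRNA genes, 942 snoRNA genes, 1901 snRNA genes and 2212 miscellaneous RNA genes.

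T24 is an established line from a human bladder carcinoma. The resistant strain, called T24DDP in the labels and T24-R in the study's text, was derived from T24 by rounds of exposure to gemcitabine and cisplatin and regrowth of the survivors. RNA was sequenced from 3 libraries of T24 and 3 of T24DDP, and the labels do not say whether these came from separate cultures. The study calls its replicates independent in a general statement that does not name these libraries, so p-values measure the spread between these libraries, which may be technical. T24DDP is 1 derived strain set against its parent, and an effect of resistance cannot be told apart from any other difference between these cultures.

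The human mitochondrial genome is a small circle with 2 strands, called heavy and light, each transcribed into a long precursor. Most tRNA genes stand between the longer genes, and cutting the tRNAs out of the precursor frees the rRNAs and mRNAs beside them. The rRNA and tRNA products serve only the mitochondrial ribosome, which makes subunits of the respiratory chain. The nuclear small RNAs act elsewhere: snoRNAs guide the chemical modification of rRNA in the nucleolus, miRNAs are cut from hairpins and repress mRNAs that match their seed, 7SL RNA is the core of the signal recognition particle, and Y RNAs bind the Ro protein.

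The 4 tRNA genes below are shown because they hold the largest and the smallest mitochondrial differences. MT-TR, MT-TD and MT-TS1 carry arginine, aspartate and serine, and MT-TP carries proline. Sequences are from the hg38 build of the human genome, read 5′ to 3′ on the transcribed strand, with the anticodon in capitals. MT-TS1 and MT-TP are the light-strand genes.
MT-TR: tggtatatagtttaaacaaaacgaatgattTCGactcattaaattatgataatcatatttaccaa
MT-TD: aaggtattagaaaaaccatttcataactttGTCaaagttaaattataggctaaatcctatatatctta
MT-TS1: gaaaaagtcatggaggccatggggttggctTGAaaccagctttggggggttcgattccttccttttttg
MT-TP: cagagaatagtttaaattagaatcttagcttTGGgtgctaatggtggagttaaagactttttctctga

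MT-TR lies at chrM:10405-10469, MT-TD at chrM:7518-7585, MT-TS1 at chrM:7446-7514 and MT-TP at chrM:15956-16023. MT-TR and MT-TD had the lowest GC content of the listed tRNA genes, 23.1% and 23.5%. GC content did not order the differences, since MT-TG, the next lowest at 26.5%, was among the less changed tRNAs.

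The 3 snoRNA genes that fell are all of the box C/D class, named for a pair of short motifs that bind the core proteins. The sequences of SNORD72 and SNORD83A are shown for these motifs. Capitals mark TGATG in the first 30 bases and CTGA in the last 25, searched on the transcribed strand, with no overlap between them.
SNORD72: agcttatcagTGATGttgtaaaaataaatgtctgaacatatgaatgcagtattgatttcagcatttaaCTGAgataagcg
SNORD83A: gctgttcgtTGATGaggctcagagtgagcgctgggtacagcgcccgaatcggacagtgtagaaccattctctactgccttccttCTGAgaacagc

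Both motifs were present in 3 of 3 of the box C/D genes and in 0 of the other 23 genes described here. Among all annotated SNORD genes, 245 of 313 (78.3%) held both, and among all miRNA genes 7 of 1879 (0.373%) did. SNORD72 lies at chr5:40832656-40832735 in an intron of RPL37, and SNORD83A lies at chr22:39315213-39315307 in an intron of RPL3. Both of these host genes encode ribosomal proteins, and neither is in the table.

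Mature miRNA sequences, from RefSeq on GRCh38.p14, were found for 5 of the 6 miRNA genes and are shown so that their seeds can be compared. Capitals mark the seed, bases 2 to 8.
hsa-miR-4787-5p: gCGGGGGUggcggcggcauccc
hsa-miR-4787-3p: gAUGCGCCgcccacugccccgcgc
hsa-miR-4482-5p: aACCCAGUgggcuauggaaaug
hsa-miR-4482-3p: uUUCUAUUucucaguggggcuc
hsa-miR-4477b: aUUAAGGAcauuugugauugau
hsa-miR-589-5p: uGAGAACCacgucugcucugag
hsa-miR-589-3p: uCAGAACAaaugccgguucccaga
hsa-miR-3153: gGGGAAAGcgaguagggacauuu

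No 2 of the 8 mature sequences shared a seed. The libraries were made with a kit for long RNA and read in pairs of 150 bases, longer than 23 of the 26 genes, so a read counted on a hairpin, tRNA or snoRNA gene can belong to a longer transcript across it. The values are therefore read counts on the genes and not levels of mature miRNAs or finished tRNAs.

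The deposited values are scaled counts, that is, reads on a gene divided by 1 size factor per library. Reads on the listed genes ranged from 1170731 to 1411926 per library, and the size factors from 0.939 to 1.08. Differences are given as T24DDP minus T24 on the log2(scaled count + 1) scale with the standard error of limma's fit over all listed genes, and a gene was called at an adjusted p under 0.05 and an absolute difference above 1. The authors kept only genes that differed between these same libraries, so calls in this table are a description and not independent evidence, and a gene absent from it is not shown to be unchanged.

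Of the 26 genes, 17 were called higher in T24DDP, 8 were called lower and 1, MT-TP, was not called. Of all listed genes 98.3% were called, 69.2% higher and 29.2% lower, so the share of members called and its split lie near the background. The groups did not overlap for any of the 26 genes, 18 of them higher in T24DDP and 8 lower, against 70.0% and 29.1% of all listed genes. The counts of the mitochondrial and the nuclear genes differed, which was not tested: 13 of 14 mitochondrial genes were called higher, with a median log2 difference of 1.78, while 4 nuclear genes were called higher and 8 lower, with a median of -1.12. The median over all listed genes was 1.41. In RNA from bulk cultures, more RNA per cell and more cells that hold it cannot be told apart.

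The sign of several of these genes changed when the libraries were scaled by the listed genes alone. Scaling by TMM factors from the listed genes in place of the deposited size factors moved the median log2 difference of all genes by -1.32. On that scale 11 of 14 mitochondrial genes stayed positive, while MT-TG (-0.076), MT-TL1 (-0.18) and MT-TP (-0.40) turned negative, and MT-TD alone of the 14 was called. Among the nuclear genes MIR4477B turned negative (-0.16) and 10 of 12 were called, including the 8 called lower on the deposited scale. TMM factors assume that most genes are unchanged, whereas the listed genes were chosen as changed and 69.2% of them were called higher. These factors shift the differences downward as a whole, so signs and calls under them are no independent check of a gene. Directions below are on the deposited scale, and ratios between genes within a library do not depend on it.

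T24DDP replicate 3 stood apart in the mitochondrial genes. All 14 were higher there than in both other T24DDP libraries, by 1.31-fold for MT-TS2 to 8.23-fold for MT-TR over the mean of replicates 1 and 2, with a median of 2.65-fold. Across the 2094 listed genes with a mean scaled count of at least 10, the median of the same ratio was 0.961 with quartiles of 0.733 and 1.21, and 50 genes exceeded 2. The nuclear genes did not follow, with a median ratio of 0.613, 3 genes above and 6 below both other libraries. Without replicate 3, 19 of the 26 genes were called, 9 mitochondrial and 10 nuclear, against 2199 of all 2462 listed genes. Every log2 difference kept its sign, which was fixed in advance because the groups did not overlap for any of these genes.

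**Figure D1:**
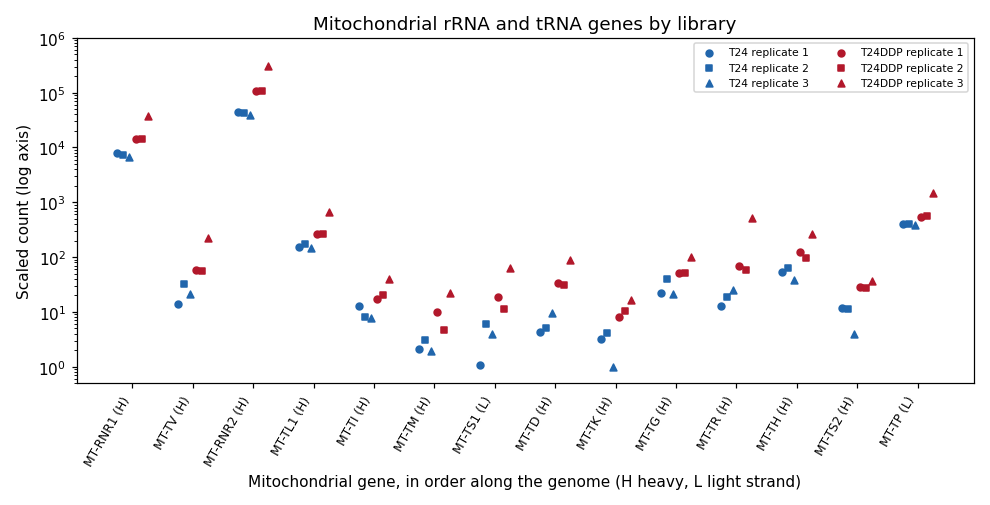
Scaled count (log axis) of each mitochondrial rRNA and tRNA gene in the 3 T24 (blue) and 3 T24DDP (red) libraries, in order along the genome, with H for heavy- and L for light-strand genes. T24DDP lay above T24 in every gene on this scale (with TMM factors the differences of MT-TG, MT-TL1 and MT-TP turned negative), and replicate 3 of T24DDP was highest, at 307908 for MT-RNR2.

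The rRNA genes of the mitochondrial ribosome carried nearly all reads on the mitochondrial genes described here. MT-RNR2, the large-subunit rRNA at chrM:1671-3229, had scaled counts of 43657, 42363 and 39709 in T24 replicates 1 to 3 and of 109332, 108171 and 307908 in T24DDP replicates 1 to 3. The T24 libraries were close to each other, T24DDP replicates 1 and 2 were close to each other and higher, and replicate 3 was far above them. The log2 difference was 1.88 (SE 0.37, limma adjusted p = 0.00118), and the mean of T24DDP replicates 1 and 2 was 2.59-fold over the T24 mean. The means were 41910 ± 2013 and 175137 ± 114985 (SD, n = 3 each).

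MT-RNR1, the small-subunit rRNA at chrM:648-1601, had scaled counts of 7927, 7381 and 6663 in T24 and of 14087, 14389 and 37903 in T24DDP. Its groups did not overlap either, and the rise was smaller, with a log2 difference of 1.43 (SE 0.34, limma adjusted p = 0.00321). Without T24DDP replicate 3 the difference was 0.96 and the call was lost. Relative to the median of all genes under TMM factors the difference of MT-RNR1 was -0.015, and that of MT-RNR2 was 0.43.

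The tRNA genes that flank the rRNAs abut them with no base between. MT-TV, for valine, lies at chrM:1602-1670 between the rRNA genes, and MT-TL1, 1 of the leucine tRNAs, at chrM:3230-3304 directly after MT-RNR2. MT-TV had scaled counts of 13.8, 31.7 and 21.3 in T24 and of 56.9, 55.4 and 221 in T24DDP, a log2 difference of 2.02 (SE 0.54). MT-TL1 had 152, 176 and 149 in T24 and 260, 260 and 674 in T24DDP, a log2 difference of 1.17 (SE 0.34). MT-TL1 was called with all libraries and not without T24DDP replicate 3, where its difference was 0.71. Along this stretch of the heavy-strand precursor the log2 differences were thus 1.43, 2.02, 1.88 and 1.17 from MT-RNR1 to MT-TL1, with standard errors of 0.34 to 0.54. Of these genes, MT-RNR1 and MT-TL1 were each compared with MT-RNR2 as within-library ratios. MT-TV was not tested against its neighbours.

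Per kilobase of gene, T24 had 26882 scaled counts on MT-RNR2, 7677 on MT-RNR1, 2120 on MT-TL1 and 323 on MT-TV. In the mean of T24DDP replicates 1 and 2 the same levels were 69757, 14924, 3467 and 814. In replicate 3 they were 197504, 39731, 8983 and 3207. The order of the 4 genes was the same at each of these levels. MT-TL1 and MT-TV are shorter than 1 read and abut the rRNA genes. Their levels may thus depend on how reads across neighbouring genes were counted, which was not tested.

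The largest mitochondrial differences were in MT-TR and MT-TD. MT-TR, the arginine tRNA between the genes for subunits of complex I, had scaled counts of 12.8, 18.4 and 25.2 in T24 and of 69.9, 57.3 and 523 in T24DDP. Replicate 3 was 27.9-fold over the T24 mean, while the mean of replicates 1 and 2 was 3.39-fold over it. The log2 difference was 2.76 (SE 0.74, limma adjusted p = 0.00574), and 1.75 without replicate 3, where MT-TR stayed called. MT-TD, the aspartate tRNA, had scaled counts of 4.26, 5.11 and 9.68 in T24 and of 33.9, 31.4 and 90.1 in T24DDP. Its T24DDP libraries were less uneven than those of MT-TR, and the mean of replicates 1 and 2 was already 5.15-fold over T24. The log2 difference was 2.74 (SE 0.46, limma adjusted p = 0.000445), and it was 1.50 and still called under TMM factors.

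MT-TH, for histidine, and MT-TS2, the other serine tRNA, are neighbours at chrM:12138-12206 and chrM:12207-12265. MT-TH had scaled counts of 53.2, 63.3 and 38.7 in T24 and of 124, 94.2 and 259 in T24DDP, a log2 difference of 1.49 (SE 0.36). MT-TS2 had 11.7, 11.2 and 3.87 in T24 and 28.9, 27.7 and 37.2 in T24DDP, a log2 difference of 1.81 (SE 0.41). T24DDP replicate 3 exceeded the mean of the other T24DDP libraries by 2.37-fold in MT-TH and by 1.31-fold in MT-TS2. MT-TS2 rests on 29, 30 and 38 reads in T24DDP replicates 1 to 3. The genes abut and each is shorter than 1 read, and how reads across them were counted was not tested. MT-TH and MT-TS2 stayed called without T24DDP replicate 3, at 1.07 and 1.69.

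MT-TG, for glycine, had scaled counts of 22.4, 39.8 and 21.3 in T24 and of 51.9, 50.8 and 102 in T24DDP. MT-TI, for isoleucine, had 12.8, 8.17 and 7.74 in T24 and 17.0, 20.3 and 40.1 in T24DDP. Their log2 differences were 1.24 (SE 0.35) and 1.28 (SE 0.38), and both calls were lost without T24DDP replicate 3, at 0.92 for each. The end of MT-TI overlaps 3 bases of MT-TQ on the opposite strand, a glutamine tRNA gene that is not listed.

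The remaining heavy-strand genes, MT-TK and MT-TM, had the fewest reads of the heavy-strand genes. MT-TK, for lysine, had 3, 4 and 1 reads in T24 and 8, 11 and 17 in T24DDP, or scaled counts of 3.19, 4.09 and 0.968 and of 7.98, 10.2 and 16.6. The ratio of its summed reads per size factor was 4.28 (95% exact Clopper-Pearson interval 1.95 to 10.7). MT-TM, for methionine, had 2, 3 and 2 reads in T24 and 10, 5 and 23 in T24DDP, or scaled counts of 2.13, 3.06 and 1.94 and of 9.98, 4.62 and 22.5. Its ratio was 5.16 (95% exact interval 2.28 to 13.7). These intervals, and limits from a count of 0, cover counting error only, since reads without molecular identifiers are not independent molecules.

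**Figure D2:**
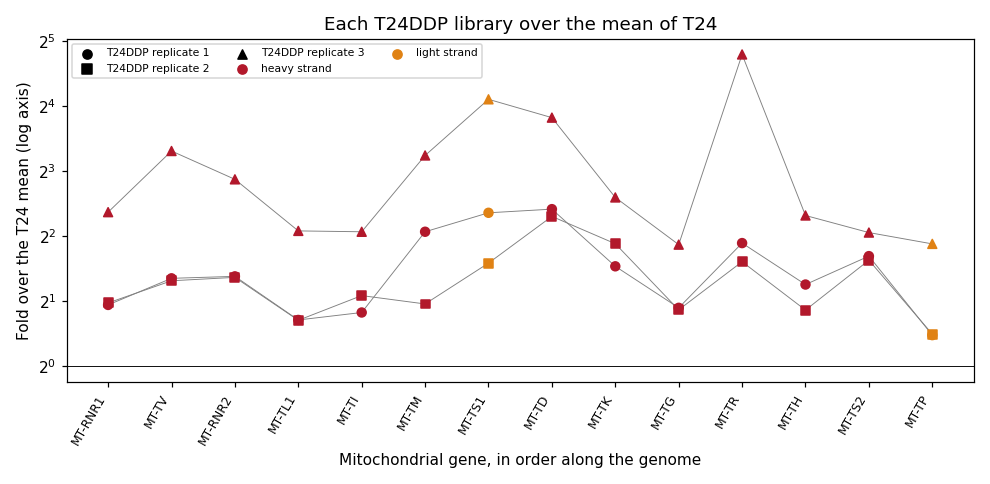
Fold of each T24DDP library over the T24 mean (log axis) for the 14 mitochondrial genes in order along the genome, red for heavy- and orange for light-strand genes. On the deposited scale every point lay above 1 (with TMM factors MT-TG, MT-TL1 and MT-TP turned negative as group differences), replicate 3 was uppermost throughout, and its fold reached 27.9 for MT-TR against 3.69 for MT-TP.

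By annotated strand, 12 of the 14 mitochondrial genes are heavy-strand genes (the plus strand of the reference) and 2, MT-TS1 and MT-TP, are light-strand genes. The annotation has 14 tRNA genes on the heavy and 8 on the light strand. All 12 heavy-strand genes were called higher, with log2 differences of 1.17 to 2.76. Of all listed genes 98.3% were called, 69.2% higher. Without T24DDP replicate 3, 8 of the 12 were called. With TMM factors 10 of the 12 stayed positive and 1 was called. Only 2 light-strand genes are listed, and a difference in calls between the strands was not tested.

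The light-strand genes lay at opposite ends of the range. MT-TS1 had 1, 6 and 4 reads in T24 and 19, 12 and 65 in T24DDP, or scaled counts of 1.06, 6.13 and 3.87 and of 19.0, 11.1 and 63.7. It was called, with a log2 difference of 2.59 (SE 0.67), and the ratio of its summed reads per size factor was 8.29 (95% exact interval 4.43 to 17.2). MT-TP, the tRNA gene beside the control region from which transcription starts, had scaled counts of 401, 393 and 387 in T24 and of 549, 555 and 1453 in T24DDP. The T24 libraries were nearly equal and all below T24DDP, yet MT-TP had the smallest log2 difference of the 14, at 0.95 (SE 0.33, limma adjusted p = 0.0208). It missed the fold threshold with limma, while edgeR and DESeq2 on the recovered reads gave 1.11 and called it. Without T24DDP replicate 3 its difference was 0.49. The methods do not say whether counting used the strand, so reads from the opposite strand cannot be told apart from those of MT-TP and MT-TS1.

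Most ratios between the genes within a library, given next, did not overlap between the groups, T24DDP replicate 3 included. The exceptions were the log2 ratio of MT-TR to MT-RNR2 and the share of MT-TL1 in the tRNA reads. Here and below, tRNA reads are those on the listed mitochondrial tRNA genes only. All genes in these ratios were listed because they differed between these same libraries, so the separation is a description and not independent evidence. How often ratios of other listed genes separate the groups was not counted. MT-RNR1 amounted to 18.2%, 17.4% and 16.8% of MT-RNR2 in T24 and to 12.9%, 13.3% and 12.3% in T24DDP. The difference in log2 ratio was -0.44, larger than the spread within either group (SD 0.057 and 0.056, n = 3 each). The exact two-sided permutation p was 0.1, the smallest that 3 against 3 libraries allow, so none of the 23 sums and ratios compared could pass a threshold of 0.05, with or without adjustment.

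The summed listed tRNAs amounted to 1.34%, 1.53% and 1.45% of the summed rRNAs in T24 and to 0.995%, 0.961% and 1.01% in T24DDP. This difference in log2 ratio was -0.54 (exact permutation p = 0.1). In scaled counts the listed tRNAs summed to 691, 760 and 671 in T24 and to 1228, 1178 and 3502 in T24DDP. The rRNAs summed to 51584, 49745 and 46371 in T24 and to 123418, 122560 and 345811 in T24DDP. Both sums were higher in every T24DDP library on the deposited scale, and the rRNAs by the larger factor. The mean of the T24DDP sums over all 14 genes rests on replicate 3: the difference from T24 was 149292 scaled counts with it and 74251 without it. With TMM factors and all libraries it was 46299.

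The light-strand genes held 58.2%, 52.6% and 58.3% of the listed tRNA reads in T24 and 46.2%, 48.1% and 43.3% in T24DDP. Only 2 of 8 annotated light-strand and 10 of 14 heavy-strand tRNA genes are listed, so this share is not the strand balance of all mitochondrial tRNAs. The share was lower in all 3 T24DDP libraries, with a difference of -10.5 percentage points between the means (exact permutation p = 0.1). It was set by MT-TP, which alone made up 51.7% to 58.1% of the tRNA reads in T24 and 41.5% to 47.1% in T24DDP. With MT-TP left out, the light-strand share is that of MT-TS1 alone. It was 0.368%, 1.67% and 1.37% in T24 and 2.79%, 1.78% and 3.11% in T24DDP (exact permutation p = 0.1). This is the opposite direction, but it rests on 1, 6 and 4 reads of MT-TS1 in T24, and the highest T24 and lowest T24DDP values were close. The lower share was thus that of MT-TP and was not seen in MT-TS1. Of all mitochondrial reads described here, the light-strand genes held 0.770%, 0.791% and 0.831% in T24 and 0.456%, 0.458% and 0.434% in T24DDP.

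MT-TR went the other way within the listed tRNAs. It made up 1.85%, 2.42% and 3.75% of tRNA reads in T24 and 5.69%, 4.86% and 14.9% in T24DDP (exact permutation p = 0.1). Against MT-RNR2 its log2 ratio overlapped between the groups (exact permutation p = 0.2). The share of MT-TL1 in the tRNA reads overlapped as well, at 22.0%, 23.1% and 22.2% in T24 and 21.2%, 22.0% and 19.2% in T24DDP (exact permutation p = 0.2). MT-TP was lower relative to MT-RNR2 in T24DDP, with a difference in log2 ratio of -0.92, and so was MT-TL1, with -0.71 (exact permutation p = 0.1 for each, groups not overlapping).

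**Figure D3:**
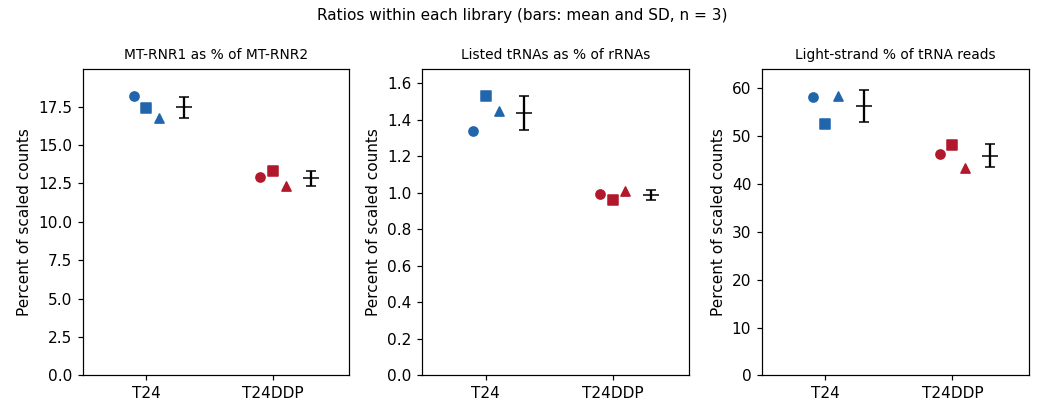
Ratios within each library, as percent of scaled counts: MT-RNR1 over MT-RNR2, listed tRNAs over rRNAs, and the light-strand share of listed tRNA reads. Points are libraries (circle, square and triangle for replicates 1 to 3), bars are mean and SD (n = 3), axes start at 0, and in each panel the 3 T24DDP libraries lie below the 3 T24 libraries, as with 12.3% to 13.3% against 16.8% to 18.2% for MT-RNR1.

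Copies of mitochondrial sequence in the nuclear genome can take or give reads. A stretch of at least 90% of the length at 95% identity or more was found elsewhere in hg38 for MT-RNR1 (2 copies), MT-TV (3), MT-TM (5) and, once each, for MT-TD, MT-TH, MT-TI, MT-TK, MT-TR and MT-TS1. The copies of MT-TK and MT-TS1 were identical to the gene. MT-RNR2, MT-TG, MT-TL1, MT-TP and MT-TS2 had none. How reads with several matches were counted is not stated, and the part of such copies in these values was not tested.

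Both miscellaneous RNA genes fell. RN7SL2, a 7SL RNA gene at chr14:49862550-49862849, had scaled counts of 109, 106 and 79.4 in T24 and of 44.9, 45.3 and 27.4 in T24DDP. The lowest T24 library was well above the highest T24DDP library, and the log2 difference was -1.32 (SE 0.25, limma adjusted p = 0.000875). RF00019, a Y RNA gene named by its family at chr16:14915457-14915556, had 68.1, 61.3 and 61.0 in T24 and 31.9, 44.3 and 16.6 in T24DDP. Its log2 difference was -1.11 (SE 0.33), and without T24DDP replicate 3 it was -0.74 and not called. RN7SL2 has 2 close copies elsewhere and lies wholly within an exon of an unlisted long non-coding RNA gene on the same strand, and RF00019 has 4 close copies, 3 of them identical, so reads on either may belong to other genes.

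Of the 4 listed snoRNA genes, the 3 of the box C/D class fell and 1, of the H/ACA class, rose. A single H/ACA gene cannot show a difference between the classes. SNORD46 had scaled counts of 27.7, 41.9 and 25.2 in T24 and of 9.98, 5.54 and 4.90 in T24DDP, with a log2 difference of -2.08 (SE 0.35, limma adjusted p = 0.000428). SNORD83A had 50.0, 57.2 and 35.8 in T24 and 8.98, 25.9 and 10.8 in T24DDP, with a log2 difference of -1.70 (SE 0.40, limma adjusted p = 0.00276). Replicate 2 was the highest T24DDP library for SNORD83A and still below every T24 library.

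SNORD72 had 9, 15 and 16 reads in T24 and 1, 6 and 0 in T24DDP, the 0 in replicate 3 allowing up to 3 reads, or a scaled count of 2.94. Its log2 difference was -2.59 (SE 0.63), and the ratio of its summed reads per size factor was 0.166 (95% exact interval 0.0629 to 0.375). All 3 of these box C/D genes stayed called without T24DDP replicate 3, and SNORD72 lost its call with a pseudocount of 10 (-0.96). All 3 were also called with TMM factors, which is no check of a lower gene, since those factors shift differences downward. SNORA12, the listed snoRNA of the H/ACA class, which guides pseudouridine formation, had scaled counts of 5.32, 3.06 and 6.77 in T24 and of 13.0, 13.9 and 20.6 in T24DDP. It was called higher, with a log2 difference of 1.50 (SE 0.35). With TMM factors the difference of SNORA12 was 0.29, with a pseudocount of 10 it was 0.77, and it was called with neither. SNORA12 lies at chr10:100237156-100237302 in an intron of CWF19L1, which is not listed.

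Of the 6 miRNA genes, 3 were called higher and 3 lower. MIR4787, at chr3:50675080-50675163, had no read in any T24 library and scaled counts of 22.0, 12.0 and 7.83 in T24DDP. Against a floor of 3 reads per library it was at least 4.56-fold higher. The hairpin lies on the same strand as DOCK3, a guanine nucleotide exchange factor gene, inside an exon of it in GENCODE version 44 and 77 bases before the DOCK3 start that the table gives. DOCK3 itself had scaled counts of 17.0, 13.3 and 17.4 in T24 and of 161, 171 and 148 in T24DDP, a log2 difference of 3.26 (SE 0.20). Both were far higher in all T24DDP libraries, and reads of the hairpin and of DOCK3 transcripts cannot be told apart here.

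MIR4482, at chr10:104268336-104268405, had 1, 2 and 4 reads in T24 and 16, 11 and 19 in T24DDP. The scaled counts were 1.06, 2.04 and 3.87 against 16.0, 10.2 and 18.6, a log2 difference of 2.31 (SE 0.40), and the ratio of summed reads per size factor was 6.24 (95% exact interval 2.80 to 16.4). It stayed called with TMM factors, at 1.21. MIR4477B, at chr9:63819574-63819654, had scaled counts of 11.7, 14.3 and 20.3 in T24 and of 40.9, 26.8 and 36.2 in T24DDP, a log2 difference of 1.13 (SE 0.30). It turned to -0.16 with TMM factors and lost its call without T24 replicate 1, at 0.96. MIR4477B also has 3 close copies in the genome, 1 of them identical.

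MIR589, at chr7:5495819-5495917 in an intron of FBXL18, had scaled counts of 38.3, 35.8 and 41.6 in T24 and of 21.0, 23.1 and 12.7 in T24DDP. Its log2 difference was -1.03 (SE 0.28), near the threshold, and the call was lost without T24 replicate 3 (-0.97) and without T24DDP replicate 3 (-0.78). MIR3153, at chr9:89312225-89312306 in an intron of the cell cycle gene CKS2, had 22.4, 26.6 and 25.2 in T24 and 8.98, 10.2 and 13.7 in T24DDP. Its log2 difference was -1.12 (SE 0.27), and T24DDP replicate 3 was the library nearest to T24. MIR1244-3, at chr12:9239467-9239551 in an intron of the pseudogene A2MP1, had 21.3, 23.5 and 14.5 in T24 and 2.99, 12.0 and 3.92 in T24DDP, a log2 difference of -1.68 (SE 0.47). MIR1244-3 has 7 close copies in the genome, 3 of them identical. The host genes FBXL18 and CKS2 are not in the table.

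**Figure D4:**
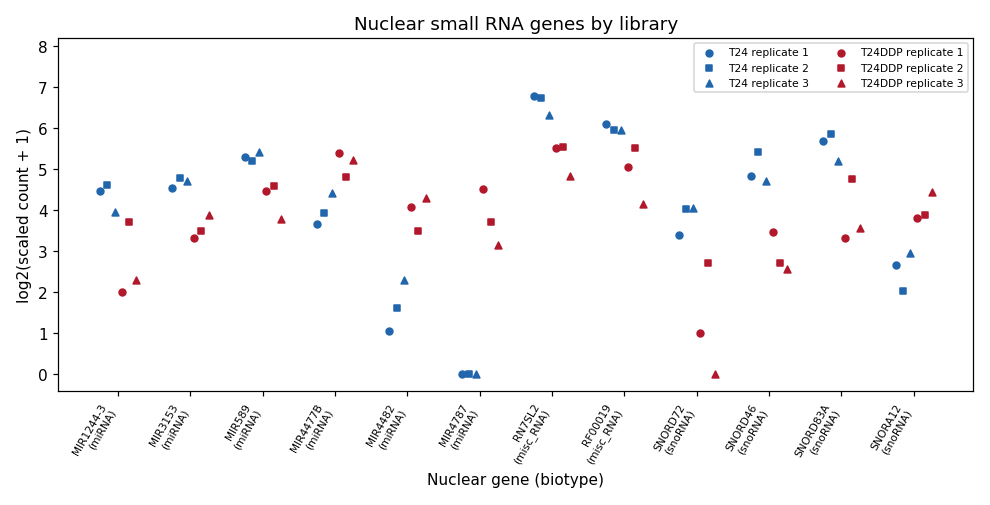
log2(scaled count + 1) of the 12 nuclear genes in the 3 T24 (blue) and 3 T24DDP (red) libraries, grouped by gene type. On the deposited scale MIR4477B, MIR4482, MIR4787 and SNORA12 lay higher in T24DDP (MIR4477B turned to -0.16 with TMM factors) and the other 8 genes lower, and MIR4787 was at 0 in all T24 libraries.

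The nuclear genes together summed to 364, 387 and 329 scaled counts in T24 and to 222, 235 and 173 in T24DDP. The miRNA genes held 26.0%, 26.4% and 32.1% of these reads in T24 and 50.5%, 40.2% and 53.7% in T24DDP. The snoRNA genes held 25.4%, 30.3% and 25.3% in T24 and 14.9%, 21.7% and 20.9% in T24DDP. The miscellaneous RNA genes held 48.5%, 43.3% and 42.6% in T24 and 34.7%, 38.2% and 25.4% in T24DDP. No share overlapped between the groups. The shares are over the 12 nuclear genes that were listed as changed, with 6 of 1879 annotated miRNA genes and 4 of 942 snoRNA genes. They depend on which genes were listed and do not give the makeup of all small RNAs. The summed miRNA counts themselves overlapped, at 94.7, 102 and 105 in T24 and 112, 94.2 and 93.0 in T24DDP, so the larger share went with lower counts of the other classes. The nuclear genes with a mean scaled count under 10 are MIR4787, MIR4482 and SNORD72. With these left out, the difference in miRNA share went from 19.9 to 11.4 percentage points and that in snoRNA share from -7.88 to -2.99.

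Few genes of the pathways that make or use these RNAs are in the table. Of the 13 mitochondrial mRNAs only MT-ATP8, a subunit of ATP synthase, is listed, with scaled counts of 295, 346 and 403 in T24 and of 575, 523 and 1034 in T24DDP. MT-ATP8 was higher in all T24DDP libraries and not called, with a log2 difference of 0.97 (SE 0.25, limma adjusted p = 0.00457), and with TMM factors it was -0.38. T24DDP replicate 3 was highest for MT-ATP8 too.

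Of 36 genes of mitochondrial transcription and RNA processing, 1 is listed. TRMT10C, a subunit of the enzyme that cuts the 5′ ends of mitochondrial tRNAs, had scaled counts of 1140, 975 and 928 in T24 and of 450, 461 and 513 in T24DDP, and was called lower at -1.09 (SE 0.12). Of 13 snoRNP proteins only DKC1, the pseudouridine synthase of H/ACA particles, is listed, with 7045, 6552 and 6366 in T24 and 2738, 2657 and 2433 in T24DDP, and was called lower at -1.35 (SE 0.11). TRMT10C and DKC1 were lower while the listed mitochondrial tRNAs and the single H/ACA snoRNA were higher on the deposited scale. Of all listed genes 29.2% were called lower, and a relation between these proteins and RNAs was not tested.

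Of 22 snRNP proteins only SNRPG is listed and was called lower at -1.14 (SE 0.24), a call lost without T24DDP replicate 3 (-0.84). Of 29 proteins of the 7SK, Y RNA, signal recognition, RNase P and vault particles, 2 are listed. RPP25 was called higher at 1.24 (SE 0.29), and -0.034 with TMM factors, and RPP25L was called lower at -1.23 (SE 0.23), a call also lost without T24DDP replicate 3 (-0.95). None of 17 miRNA biogenesis genes is listed.

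Of 15 markers of bladder urothelium and T24, 3 are listed: KRT19 and PPARG were called lower and GATA3 higher. KRT19 had scaled counts of 203, 171 and 148 in T24 and of 0, 0 and 0.979 in T24DDP. None of 10 retina markers is listed; these were looked up because the extraction text in the labels names retinas. Of 3 markers of other cells, the endothelial PECAM1 (0 to 4.26 in T24, 21.0 to 32.3 in T24DDP) and the fibroblast gene COL1A1 (22.4 to 47.4 in T24, 142 to 212 in T24DDP) were called higher. PTPRC is not listed. In T24DDP replicate 3 PECAM1 was the highest and COL1A1 the lowest of the T24DDP libraries, and the part of such cells in the values above was not tested.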

How the data were processed

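RNA of 3 T24 and 3 T24DDP libraries was sequenced by the authors. The authors trimmed reads with fastp, aligned them to GRCh38 with HISAT2, counted them on genes with featureCounts and tested them with DESeq2. Their labels name the mm9 build and retinas, at odds with the human identifiers and coordinates, and the study's methods were used instead. The authors deposited signal values, made by dividing each library's reads by its size factor. The group means, log2 fold changes, p-values and adjusted p-values that the authors deposited were not used.

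All values were whole multiples of 1 step per library (100% within 1e-06 reads), which gave reads and size factors. Limma 3.58.1 (R 4.3.3, variance trend) was fitted to log2(scaled count + 1) of all 2462 genes, with Benjamini-Hochberg adjustment. edgeR 4.0.16 (quasi-likelihood) and DESeq2 1.42.0 on the reads with the deposited size factors were alternatives, as were limma with TMM factors from the table, pseudocounts of 0.1 and 10, a mean scaled count of at least 10, no trend, a replicate block and each library left out. Fits were tested on simulated data. Within-library ratios were compared by exact two-sided permutation. Coordinates of all 26 genes matched GENCODE version 44, and copies were sought in hg38 with BLAST 2.17.0 (word size 20).

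Every mitochondrial gene, every nuclear gene with a mean scaled count of at least 10 and every miRNA with a mature sequence was to be given by library. SNORD72 falls outside this rule and was named after its values were seen. Members and lists were chosen with earlier results of these data known. The sequence and position of SNORD46 are not reported here.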

Additional observations from a re-analysis of the deposited data

How the results depend on the processing

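Of the 26 genes 25 were called. The count was 15 with a pseudocount of 10 (5 nuclear) and 11 with TMM factors (1 mitochondrial), and with the latter the whole table went from 2421 to 1306 called. The calls lost with a pseudocount of 10 were those of MT-TI, MT-TK, MT-TM, MIR1244-3, MIR3153, MIR4477B, MIR589, RF00019, SNORA12 and SNORD72. TMM factors moved the median log2 difference of all genes by -1.32, and a larger pseudocount shrinks differences between low counts. Other contributions to these moves were not tested. TMM factors reversed MT-TG (-0.076), MT-TL1 (-0.18), MT-TP (-0.40) and MIR4477B (-0.16). Leaving out 1 library gave 19 to 26 called genes (9 to 14 mitochondrial, 10 to 12 nuclear). Without T24DDP replicate 3 it was 19, when 2199 genes of the whole table were called. The difference in summed mitochondrial counts was 149292, 74251 to 187039 with 1 library left out, 46299 with TMM factors and 16065 without MT-RNR2. The light-strand share of all mitochondrial reads differed by -0.35 percentage points, and by -1.30 without MT-RNR2. With genes of mean 10 or more, the difference in miRNA share went from 19.9 to 11.4 points and in snoRNA share from -7.88 to -2.99. Same-numbered libraries correlated at 0.12, 0.02 and 0.18 in their deviations, for each T24 library its highest correlation with a T24DDP library. T24DDP replicate 2 correlated best with T24 replicate 1, at 0.11. The main fit was made without pairs, and these weak correlations do not settle whether the numbers mark pairs. A replicate block gave 25 called genes here and 2423 in the table, and changed the call of none of the 26. With the block the limma adjusted p of MT-RNR1 went from 0.00321 to 0.000119, and that of MIR3153 from 0.00345 to 0.00647. Few reads limit MT-TD, MT-TK, MT-TM, MT-TS1, MIR4482 and SNORD72, whose counting intervals stand with their values. Reads in T24 were also few for SNORA12 (5, 3 and 7), MT-TI (12, 8 and 8), MT-TS2 (11, 11 and 4) and MIR4787 (0 in each library).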
